A study of Rattus norvegicus with 12 samples.

Results

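The Na/K-ATPase is the pump that carries sodium out of cells and potassium into them at the expense of ATP. Described here are 5 of its genes, ATP1B1, ATP1B2, ATP1B3, FXYD1 and FXYD2, in rat choroid plexus. They were chosen by name, as the beta subunits and FXYD regulators that the study's supplementary tables pair with an Ensembl identifier. All 5 were found, among 32883 genes in the files, and all 5 were among the 12513 genes tested. RNA was sequenced from whole choroid plexus (of the lateral and the fourth ventricles) of male Sprague-Dawley rats aged 9 weeks, with 1 library per rat. The light phase is represented by 6 rats collected at zeitgeber time (ZT, hours after lights on) 8, and the dark phase by 6 other rats at ZT 20. All rats were anesthetized with xylazine and ketamine before the tissue was taken, so the phases share the anesthesia, and each phase is a single time point.

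The pump consists of a catalytic alpha subunit, which binds ATP and the ions, and a glycosylated beta subunit, without which the alpha subunit does not reach the plasma membrane. A small single-span FXYD protein can join this pair and tune its affinity for sodium and potassium. In most epithelia the pump lies on the blood side of the cell. In choroid plexus it lies on the side that faces the ventricle, where it drives the sodium transport that underlies cerebrospinal fluid secretion. The comparison of the phases asks whether the transcripts of this machinery change with the time of day.

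Expression is given in TPM, the abundance of a transcript relative to all transcripts of its library, which is corrected for transcript length, so that levels can be compared between genes. For the test, TPM was scaled between libraries and transformed to log2(TPM + 0.5), and limma was fitted to all tested genes with Benjamini-Hochberg adjustment (FDR). A positive log2 fold change means more transcript at ZT 20. The fold changes are on this log2(TPM + 0.5) scale, which makes the changes of weakly expressed genes look smaller than they are. Read numbers cannot be had from TPM, and the absolute depth of each library is unknown. The ratios of low values between libraries placed the relative depth at 0.887 to 1.37 of the mean for light-phase libraries and at 0.885 to 1.09 for dark-phase libraries. The choroid plexus epithelial markers were present in every library, led by the thyroid hormone carrier TTR at 243061 to 323703 scaled TPM. Light-phase replicate 2 stood apart from the rest, with 99 of the 6947 genes above 10 TPM more than 2-fold away from the other libraries of its phase, against 21 to 33 in the other 11 libraries. It had the highest erythrocyte transcript HBB (5302 scaled TPM) and the highest summed smooth muscle and pericyte markers (403) and endothelial markers (133). Its summed epithelial markers were the lowest (248366 scaled TPM). The part of tissue composition in its values was not tested.

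Of the 5 genes, only ATP1B2 passed the test at an FDR below 0.05, and it was higher in the dark phase. Among all tested genes, 17.7% passed in either direction, 9.36% with a higher and 8.38% with a lower level in the dark phase. The count of 1 in 5 is close to this background. FXYD1 was not called with all libraries, and its fold change varied with the light-phase rats included and with the model fitted. ATP1B1 and ATP1B3 differed by less than the spread between rats, and FXYD2 was listed at 0 in 7 of the 12 libraries. The plot of TPM by rat shows the 5 genes side by side.

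**Figure D1:**
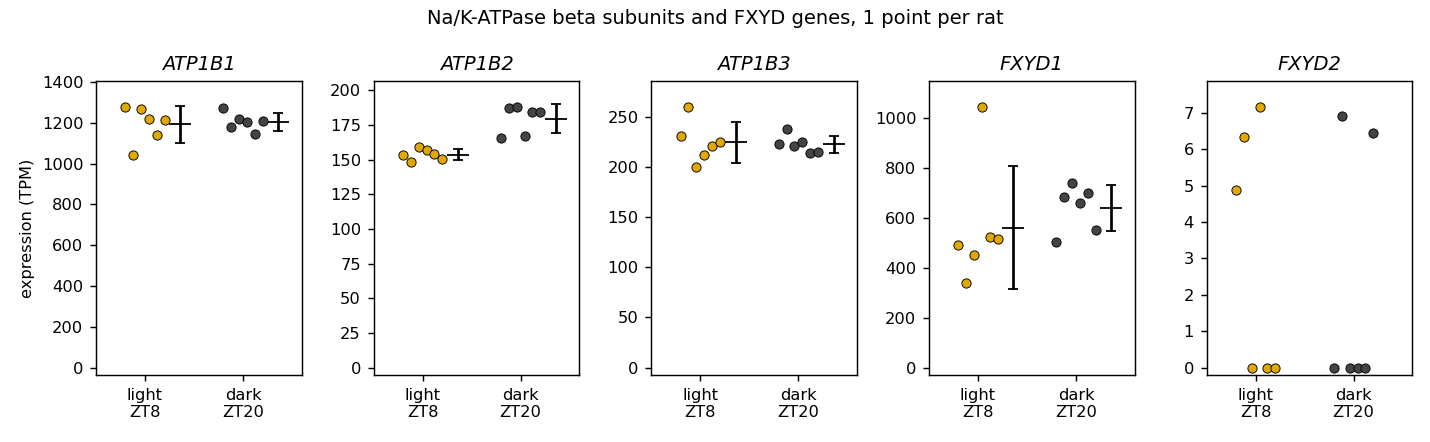
Expression (TPM, linear axes from 0) of the 5 genes in each rat, light phase (ZT 8, yellow) and dark phase (ZT 20, grey), with the mean ± SD (n = 6) beside the points except for FXYD2. The ATP1B2 points of the dark phase lie above all those of the light phase, 1 light-phase rat stands at 1045 TPM for FXYD1, and FXYD2 is at 0 in 7 rats.

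ATP1B1 (ENSRNOG00000002934), the beta subunit found in most epithelia, was the most abundant of the 5, at position 56 by mean TPM among all genes in the files. In the light phase it ranged from 1040 to 1276 TPM with a median of 1216 TPM. In the dark phase it ranged from 1144 to 1273 TPM with a median of 1206 TPM. The dark-phase range lay within that of the light phase, and the lowest value of all was that of light-phase replicate 2. Means were 1192 ± 89.5 TPM at ZT 8 and 1204 ± 42.9 TPM at ZT 20 (SD, n = 6 rats each). The log2 fold change was -0.0027 (SE 0.06, limma FDR = 0.984). Its 95% confidence interval ran from -8.85 to 9.30% of the light-phase level. With TPM as deposited the sign of this small difference was positive (0.02).

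ATP1B2 (ENSRNOG00000011227) encodes the beta subunit first described as an adhesion molecule on glia, and it held position 600 by mean TPM. In the light phase its expression ranged from 148 to 159 TPM with a median of 154 TPM. In the dark phase it ranged from 166 to 188 TPM with a median of 184 TPM. Every dark-phase rat lay above every light-phase rat, a separation that 8.26% of the tested genes had. Within the dark phase the rats fell apart, with replicates 1 and 4 at 165.85 and 167.17 TPM and the other 4 between 184.25 and 187.91 TPM.

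The mean of ATP1B2 was 154 ± 3.95 TPM at ZT 8 and rose by 16.9% to 180 ± 10.2 TPM at ZT 20 (SD, n = 6 rats each). The log2 fold change was 0.20 (SE 0.05, limma FDR = 0.00953), with a 95% confidence interval from 7.44 to 23.5% higher. The two-sided exact permutation test over the 12 libraries gave p = 0.00433, and the smallest p this design allows is 0.00216. In size the change was below the median of the called genes (0.28 on the log2 scale). After scaling, light-phase replicate 4 (167 scaled TPM) lay above dark-phase replicate 1 (163 scaled TPM), so the phases overlapped on that scale. In scaled TPM, 8.86% of the tested genes had phases without overlap. The gene was called with each library left out in turn, with an FDR between 0.00575 and 0.0243. It was not called when the ratio of summed FPKM to summed TPM per library was added as a covariate (log2 fold change 0.28, limma FDR = 0.0552). FPKM is the second unit in the files, and this ratio is the inverse of the mean transcript length of a library in kilobases. It lay at 0.953 to 0.987 among light-phase libraries and at 0.934 to 0.960 among dark-phase libraries.

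Because whole tissue was sequenced, more cells of a type and more RNA per cell cannot be told apart. All 8 listed epithelial markers were paired with an identifier. Their summed level was 248366 to 329900 scaled TPM at ZT 8 and 287803 to 315650 scaled TPM at ZT 20. Nearly all of this sum was TTR (light-phase median 304034 scaled TPM, against 309749 for the sum), so it says little of the other markers. Limma called 3 of the 8 higher and 2 lower in the dark phase, against 9.36% and 8.38% of all tested genes. Of the listed fibroblast, endothelial and smooth muscle markers, 2 each were paired. Of the endothelial pair, FLT1 was called higher in the dark phase (log2 fold change 0.35, limma FDR = 0.000209), and PLVAP had -0.19 (0.458). Of the smooth muscle and pericyte pair, TAGLN was called lower (log2 fold change -0.73, limma FDR = 0.0269), and RGS5 had -0.05 (0.892). Of the 6 listed macrophage markers only PTPRC was paired, and it was lower in the dark phase (limma FDR = 0.0483). PTPRC (1.25 to 2.85 scaled TPM) and FLT1 (12.0 to 17.4 scaled TPM) are too weakly expressed for the study's table ordered by expression alone. They were paired through genes selected on these samples, so their calls are not independent of the phases. The part of these cell types in the change of ATP1B2 was not tested. Of the astrocyte and neuron markers listed, 0 were paired with an identifier. Astrocyte or neuron RNA in these libraries was not tested.

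Promoter sequences from RefSeq (build GRCr8) were held for 3 of the 5 genes. They are shown because ATP1B2 was called while ATP1B3 was not, and because FXYD1 was called only without 1 rat. Each line gives the 250 bases before the transcription start, 5′ to 3′ on the strand of the gene, and capitals mark the motifs found.
ATP1B2 (chr10:54823709-54823958, minus strand): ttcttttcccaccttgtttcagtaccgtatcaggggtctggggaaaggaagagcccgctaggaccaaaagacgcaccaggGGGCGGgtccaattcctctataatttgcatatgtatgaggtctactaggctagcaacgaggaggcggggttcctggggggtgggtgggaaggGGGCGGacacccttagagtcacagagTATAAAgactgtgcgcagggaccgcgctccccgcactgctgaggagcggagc
ATP1B3 (chr8:105821152-105821401, minus strand): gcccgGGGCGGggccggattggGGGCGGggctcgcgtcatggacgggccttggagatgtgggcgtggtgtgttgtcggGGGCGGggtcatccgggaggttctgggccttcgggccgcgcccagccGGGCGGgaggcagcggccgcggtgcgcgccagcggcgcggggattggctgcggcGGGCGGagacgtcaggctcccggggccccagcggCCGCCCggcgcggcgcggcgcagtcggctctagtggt
FXYD1 (chr1:95418581-95418830, minus strand): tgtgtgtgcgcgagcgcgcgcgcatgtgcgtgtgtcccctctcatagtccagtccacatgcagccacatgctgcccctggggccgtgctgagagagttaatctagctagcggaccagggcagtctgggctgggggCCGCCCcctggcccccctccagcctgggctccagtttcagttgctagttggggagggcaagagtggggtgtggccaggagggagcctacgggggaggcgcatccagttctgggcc

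The motifs searched, on both strands, were the E-box CACGTG and the D-box TTANGTAA, at which clock transcription factors bind, the cAMP response element TGACGTCA, the GC box GGGCGG and the TATA box TATAAA. No pair of these motifs overlapped in the 3 windows. The ATP1B2 window held 2 GC boxes and a TATA box, the latter from base -52 to base -47 before the start. The ATP1B3 window held 6 GC boxes, with a GC content of 79.6%, against 58.0% for ATP1B2 and 66.8% for FXYD1. The FXYD1 window held 1 GC box, on the opposite strand. Among all 33469 promoters of the table, windows of the same length held a GC box in 30.5% and a TATA box in 12.9%. An E-box was present in 5.59% of them, a D-box in 2.04% and the cAMP response element in 1.59%. These 3 sequences were in none of the 3 windows, which says only that these letters are not there.

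ATP1B3 (ENSRNOG00000011501), the third beta subunit, is expressed in many tissues and held position 444 by mean TPM. In the light phase it ranged from 200 to 259 TPM with a median of 223 TPM. In the dark phase it ranged from 214 to 238 TPM with a median of 222 TPM. The dark-phase range lay within that of the light phase, and the highest value was that of light-phase replicate 2, the library with the lowest ATP1B1. Means were 224 ± 20.2 TPM and 222 ± 8.50 TPM (SD, n = 6 rats each), and the log2 fold change was -0.03 (SE 0.05, limma FDR = 0.741). The 95% confidence interval ran from -8.93 to 5.57% of the light-phase level.

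The order of the beta subunits was the same in every library. ATP1B1 exceeded ATP1B3, and ATP1B3 exceeded ATP1B2 in 12 of 12 libraries, by 1.16- to 1.75-fold. Shares within the summed TPM of the 3 genes need no scaling between libraries. ATP1B1 made up 75.8 ± 2.15% of the sum at ZT 8 and 75.0 ± 1.09% at ZT 20 (SD, n = 6 rats each). ATP1B3 made up 14.4 ± 1.92% and 13.9 ± 0.552%. The share of ATP1B2 was 9.24 to 10.2% in the light phase (median 9.83%) and 9.98 to 12.0% in the dark phase (median 11.5%). Dark-phase replicate 1, at 9.98%, lay within the light-phase range, and the other 5 dark-phase libraries lay above all of it. The mean share was 1.40 percentage points higher in the dark phase, and it is given without a test because it combines the chosen genes.

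**Figure D2:**
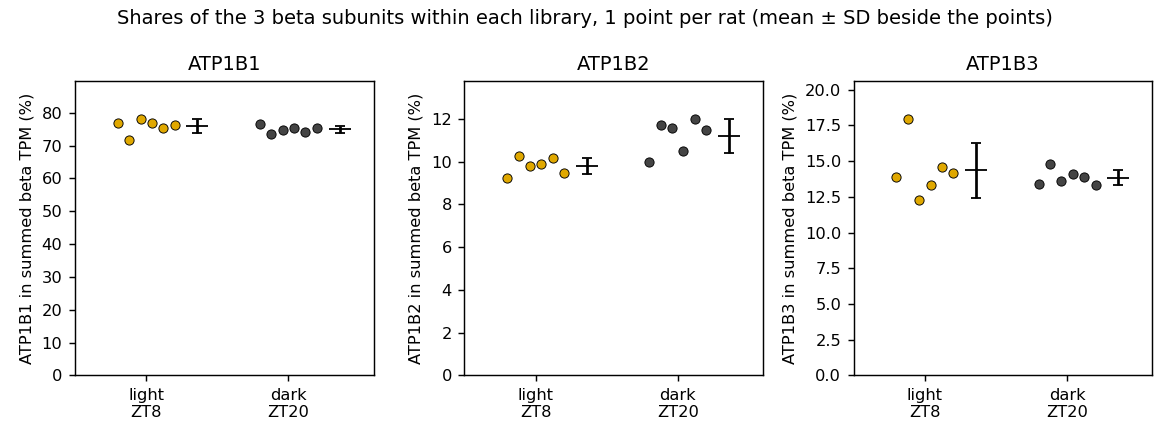
Share (%, axes from 0) of ATP1B1, ATP1B2 and ATP1B3 in the summed TPM of the 3 beta subunits in each library, light phase (ZT 8, yellow) and dark phase (ZT 20, grey), with the mean ± SD (n = 6) beside the points. The ATP1B2 share of 5 dark-phase libraries lies above that of all light-phase libraries, while the phases overlap for ATP1B1 and ATP1B3.

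FXYD1 (ENSRNOG00000021079) encodes phospholemman, which lowers the affinity of the pump for sodium until kinases A or C phosphorylate it. It held position 145 by mean TPM. In light-phase replicates 1 to 6 it had 492.63, 337.54, 450.49, 1045.02, 524.08 and 516.22 TPM. In dark-phase replicates 1 to 6 it had 503.60, 685.63, 739.00, 659.51, 700.83 and 550.76 TPM. The highest value of all 12 belonged to light-phase replicate 4, 1.99-fold above the next light-phase library and 1.41-fold above the highest dark-phase library. The lowest belonged to light-phase replicate 2.

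Over all libraries the means were 561 ± 247 TPM at ZT 8 and 640 ± 92.2 TPM at ZT 20 (SD, n = 6 rats each). The log2 fold change was 0.25 (SE 0.23, limma FDR = 0.493), with a 95% confidence interval from -15.3 to 66.9% of the light-phase level. The spread between rats of a phase was larger than in 93.3% of the tested genes. Without light-phase replicate 4 the light-phase mean was 464 ± 76.4 TPM (SD, n = 5), and 5 of 6 dark-phase rats lay above the highest light-phase rat. The log2 fold change was then 0.46 (SE 0.14, limma FDR = 0.0437), which is 37.9% higher in the dark phase, with 14.3% of the tested genes called in that fit. The two-sided exact permutation test gave p = 0.0173 without this library and p = 0.390 with it. This library was picked for the exact test after its value was seen, so p = 0.0173 is only a description. Without both this library and light-phase replicate 2, which had the lowest level, the log2 fold change was 0.34 (limma FDR = 0.0615). The plot of fits with each library left out shows that the gene was called only when light-phase replicate 4 was the library left out.

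**Figure D3:**
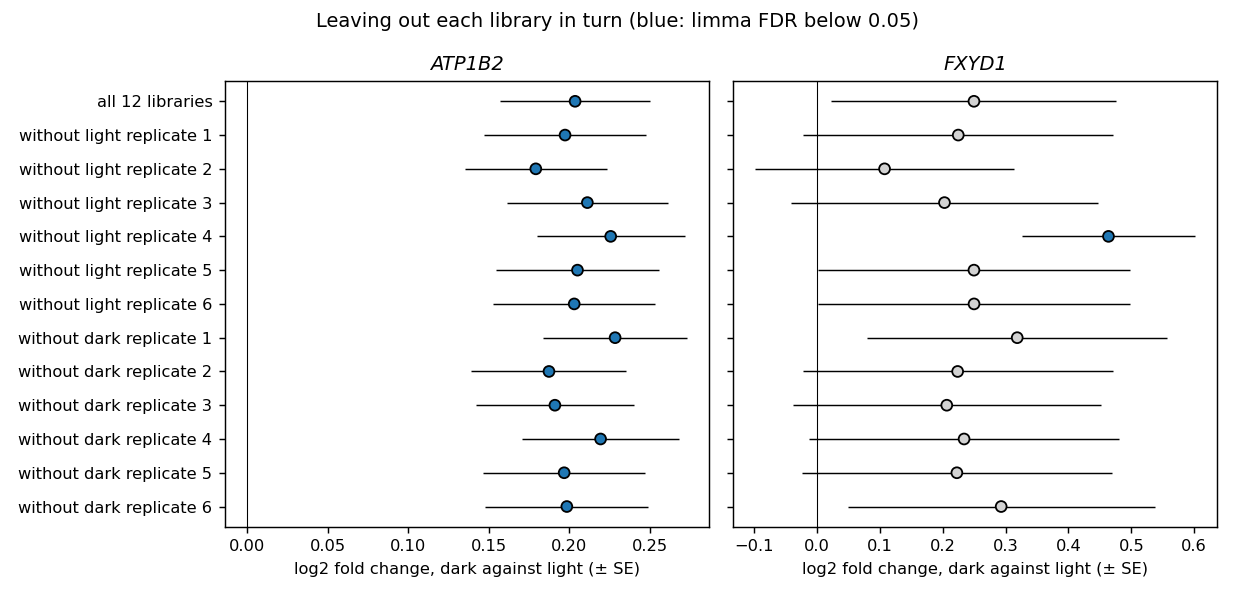
Log2 fold change of ATP1B2 and FXYD1, dark against light phase (points, with bars of ± 1 SE), with all 12 libraries and with each library left out. ATP1B2 stays between 0.18 and 0.23 and is called (blue) in every fit, whereas FXYD1 moves between 0.11 and 0.46 and is called only without light-phase replicate 4.

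Light-phase replicate 4 had the lowest scaling factor, by which TPM is divided, at 0.940, against 0.974 to 1.04 in the other libraries. In the count of genes more than 2-fold away from the other light-phase libraries it was not unusual, with 27. This count does not show smaller shifts. FXYD1 in light-phase replicate 4 was 1.28 above the other light-phase libraries on the log2 scale, and 9 of the 6947 genes above 10 TPM had a larger excess there. This library also had the highest ratio of summed FPKM to summed TPM, 0.987. Pearson's r between FXYD1 and this ratio, both on the log2 scale and centred within each phase, was 0.75 over 12 libraries. Without light-phase replicate 4 it was 0.72. The same r over 12 libraries was 0.44 for ATP1B2, 0.37 for ATP1B1 and -0.02 for ATP1B3. The part of the ratio in the FXYD1 result was not tested beyond the covariate fit. With this ratio as a covariate the log2 fold change of FXYD1 was 1.00 (SE 0.25, limma FDR = 0.0597). The summed level of the smooth muscle and pericyte markers TAGLN and RGS5 was 181 scaled TPM in this library, within a light-phase range of 173 to 403 scaled TPM, and the part of such cells in the FXYD1 value was not tested.

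FXYD2 (ENSRNOG00000016469) encodes the gamma subunit, known mainly from kidney. It was paired with an identifier only through tables of genes that the study had selected on these samples, so its place among the 5 genes is not independent of the phases. Light-phase replicates 1, 2 and 4 had 4.88, 6.33 and 7.16 TPM, and the other 3 light-phase libraries were listed at 0. Dark-phase replicates 2 and 6 had 6.91 and 6.45 TPM, and the other 4 were listed at 0. The gene was thus either between 4.88 and 7.16 TPM or at 0, in both phases, with no value between. A 0 in these files can be a failed estimate, and no mean ± SD is given. The limma test did not call it (log2 fold change -0.58, FDR = 0.747), with a 95% confidence interval from -2.80 to 1.64 on the log2 scale. In the RefSeq annotation its nearest neighbour is another gene of the family, FXYD6. Whether reads were divided between the pair was not tested.

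ATP4A (ENSRNOG00000020985), a gene of the wider family, encodes the alpha subunit of the gastric proton pump. It was also paired only through the selected tables. It ranged from 1.39 to 4.78 TPM in the light phase (median 2.09 TPM) and from 0.790 to 1.82 TPM in the dark phase (median 0.830 TPM), and the phases overlapped through dark-phase replicate 2. Its expression fell by 0.93 on the log2 scale (SE 0.25, limma FDR = 0.0203). Its highest value, 4.78 TPM, was again in light-phase replicate 4. It was not called in the fit with the FPKM to TPM ratio (log2 fold change -0.29, limma FDR = 0.690).

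Likeness between genes was measured as Pearson's r of log2 scaled TPM over the 12 libraries, centred within each phase. The libraries share depth and tissue composition, and the values are descriptions. Closest to ATP1B1 were ITFG1 (r = 0.94), ATP6V1A (0.92) and OS9 (0.92). Between the pump genes themselves, ATP1B1 and ATP1B3 had r = -0.48. ATP1B2 was closer to FXYD1 (r = 0.73) than to ATP1B1 (0.37). Light-phase replicate 2 had the lowest ATP1B1 and the highest ATP1B3. In scaled TPM, ATP1B2 and FXYD1 were both lowest in that library and, within the light phase, both highest in replicate 4. The weight of single libraries in these r values was not tested. Closest to ATP1B2 were ENSRNOG00000028166, ENSRNOG00000009281 and ENSRNOG00000001847 (r = 0.88, 0.88 and 0.87), which had no symbol, followed by FOXP4 (0.87). FOXP4, a transcription factor, had a log2 fold change of 0.20 (limma FDR = 0.0124). At a mean of 19.0 TPM it had a symbol only through genes selected on these samples, so its call is not independent of the phases. The 3 closer genes without a symbol were not called (limma FDR = 0.861, 0.439 and 0.984). The 3 genes closest to ATP1B3 had no symbol, and the first one with a symbol was CERS2 (r = 0.87). FXYD1 was closest to MESD (r = 0.90), SIL1 (0.87) and ENSRNOG00000006575 (0.87). FXYD2 was closest to ATF6B (r = 0.92), MIA2 (0.83) and ENSRNOG00000020394 (0.83), with only 5 libraries above 0.

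Pumps of the related calcium family, which remove calcium from the cytosol, were all higher in the dark phase where they could be tested. Of 8 listed, 6 had an identifier, and limma called 6 higher and 0 lower in the dark phase. Of these, 4 were paired by a table ordered by expression alone, and all 4 were higher, against 9.06% higher and 14.6% lower among the 1997 genes of that table. The other 2, ATP2B1 and ATP2B4, were paired through genes selected on these samples. The median log2 fold change of the 6 genes was 0.24, against -0.0099 over all tested genes. It includes the 2 selected genes and is not independent of the phases. ATP2A2, the pump of the endoplasmic reticulum, rose from a light-phase mean of 115 ± 8.03 TPM to 146 ± 7.69 TPM (SD, n = 6 rats; log2 fold change 0.32, limma FDR = 0.00122). ATP2C1, the pump of the Golgi apparatus, rose from a light-phase mean of 52.9 ± 3.89 TPM to 62.9 ± 2.85 TPM (SD, n = 6 rats; log2 fold change 0.23, limma FDR = 0.00143). ATP2B1, a plasma membrane calcium pump, rose from a light-phase mean of 12.7 ± 1.01 TPM to 15.4 ± 1.07 TPM (SD, n = 6 rats; log2 fold change 0.25, limma FDR = 0.00559). In ATP2A2 and ATP2C1 the phases did not overlap in TPM, as in 8.26% of the tested genes.

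Of 18 listed regulators and membrane anchors of the Na/K-ATPase, 5 had an identifier. Limma called 2 of them higher and 1 lower in the dark phase, against 9.36% and 8.38% of all tested genes, and their median log2 fold change was 0.10. Of the 4 paired by the table ordered by expression alone, 1 was called higher and 1 lower, against 9.06% and 14.6% of the genes of that table. SPTAN1, a spectrin of the skeleton that anchors the pump, rose by 18.4%, from a light-phase mean of 52.7 ± 2.40 TPM to 62.4 ± 1.71 TPM (SD, n = 6 rats; limma FDR = 0.000206). SGK1, a kinase induced by corticosteroids that raises sodium transport, fell by 32.6%, from a light-phase mean of 148 ± 27.6 TPM to 99.5 ± 9.70 TPM (SD, n = 6 rats; limma FDR = 0.00176). PRKCA, a C kinase of the kind that phosphorylates phospholemman, rose from a light-phase mean of 1.82 ± 0.324 TPM to 2.82 ± 0.535 TPM (SD, n = 6 rats; limma FDR = 0.0143). PRKCA was paired through the selected tables only, so the counts over all 5 are not independent of the phases. The spectrin SPTBN1 (limma FDR = 0.115) and the phosphatase subunit PPP1CA (0.301) did not pass the test.

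Of 17 listed transporters and channels that use or restore the sodium and potassium gradients, 11 had an identifier. Limma called 3 higher and 3 lower in the dark phase, against 9.36% and 8.38% of all tested genes, and the median log2 fold change was -0.07. Of the 7 paired by expression alone, 0 were called higher and 2 lower, against 9.06% and 14.6% of the genes of that table. The rest, KCNA1 and KCNQ1 among them, were paired only through genes selected on these samples. The counts over all 11 are therefore not independent of the phases. SLC4A5, a sodium bicarbonate cotransporter, was lower in the dark phase (log2 fold change -0.26, SE 0.05, limma FDR = 0.00244). The potassium channel KCNA1 rose from a light-phase mean of 14.6 ± 1.74 TPM to 19.5 ± 2.10 TPM (SD, n = 6 rats; limma FDR = 0.00801). The potassium channel KCNQ1 fell from a light-phase mean of 22.6 ± 0.711 TPM to 17.8 ± 2.42 TPM (SD, n = 6 rats; limma FDR = 0.00945). SLC12A2, the cotransporter that brings sodium, potassium and chloride across the membrane of these cells, had a log2 fold change of -0.07 (95% confidence interval -0.17 to 0.03, limma FDR = 0.304). The plot of these genes sets the beta subunits beside them.

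**Figure D4:**
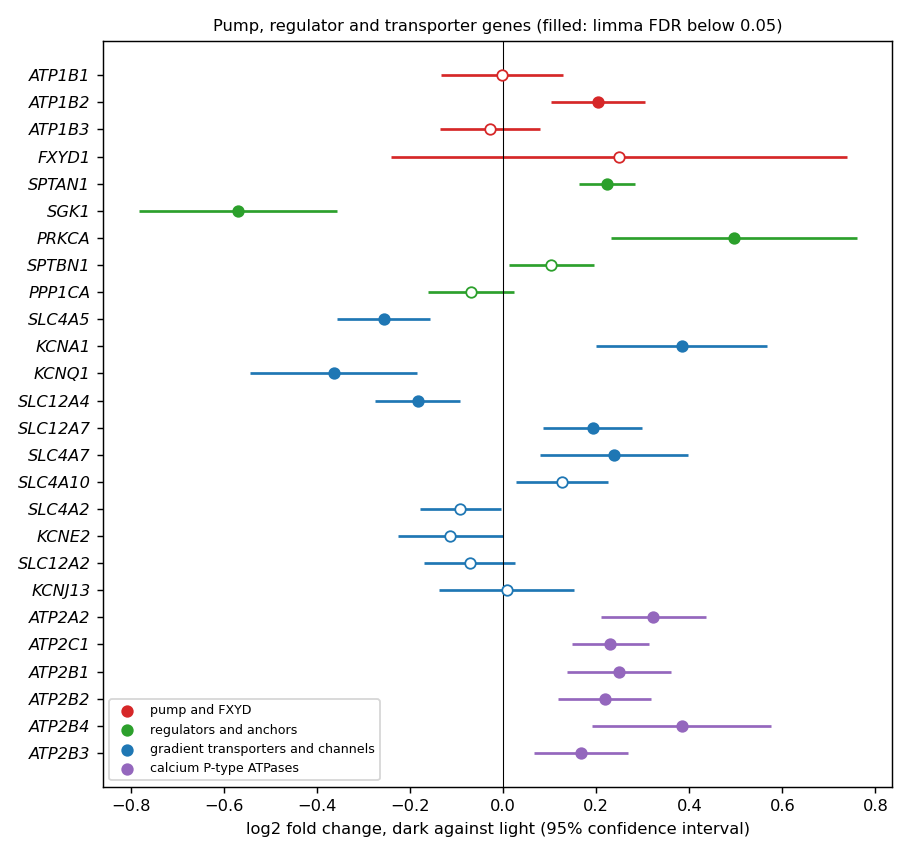
Log2 fold change, dark against light phase, with 95% confidence intervals, of the pump and FXYD genes except FXYD2 (red), regulators and anchors (green), gradient transporters and channels (blue) and calcium pumps (purple); filled points have a limma FDR below 0.05. The interval of FXYD1, from -0.24 to 0.74, is much wider than those of the beta subunits, and all 6 calcium pumps lie above 0.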

How the data were processed

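Choroid plexus RNA of 12 rats was sequenced as paired-end reads, with 1 library per rat. The authors mapped reads to Rnor_6.0 with STAR 2.7.9a and quantified genes with RSEM 1.3.3. The deposited TPM values were scaled between libraries with a trimmed mean of ratios (30% of ratios and 5% of levels trimmed at each end). The deposited FPKM values served for the depth estimate, a covariate and an alternative. The study tested read counts, which these files do not hold. The 12513 genes averaging 1 TPM or more were tested as log2(TPM + 0.5) with limma 3.58.1 in R 4.3.3, with a variance trend, phase alone as the factor and an FDR of 0.05. Exact tests, likeness, figures and motif counts used Python 3.11.15 with scipy 1.17.1. The fit was tested on simulated data.

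Groups came from the sample titles. Of the library pairs, 0 were identical, and r between libraries lay between 0.959 and 0.983. Symbols came from the study's supplementary tables, held in part, and 3627 tested genes had one. The members and lists were chosen with earlier results of these data known. All 5 members were named, as were the 3 genes of smallest p in each list (with SPTBN1, PPP1CA and SLC12A2 named after their values were seen) and the 3 genes of at least 10 TPM closest to each member (with the first one that had a symbol). Some results under this rule are not reported here. Alternatives covered scaling, filters, pseudocounts, the unit, the variance model, a replicate block, a covariate and leaving out libraries.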

Additional observations from a re-analysis of the deposited data

Results flagged for a closer look

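In 20 groups of 6 libraries examined, 3 values lay farther from the rest than Dixon's 95% critical value for 6 values allows, and chance marks about 1 group in 20. FXYD1 in light-phase replicate 4 (1045 TPM) was separated from the next library by 0.736 of the range of its phase. ATP4A in the same library (4.78 TPM) was separated by 0.693 of the range of its phase. ATP4A in dark-phase replicate 2 (1.82 TPM) was separated by 0.903 of the range.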

How the results depend on the processing

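With the ratio of summed FPKM to summed TPM in the model, 338 genes were called (212 higher and 126 lower in the dark phase), against 2219 without it. ATP1B2 then had a log2 fold change of 0.28 and was not called, ATP1B1 had 0.087 and ATP4A had -0.29. The ratio differs between the phases, and the cause was not tested. ATP1B1 was also above 0 with TPM as deposited (0.017) and with upper-quartile scaling (0.0025). With 1 library left out, ATP1B1 ranged from -0.056 to 0.020, FXYD1 from 0.11 (without light-phase replicate 2) to 0.46 (without light-phase replicate 4), and the genes called from 1702 to 2283. Without light-phase replicates 2 and 4 together, an alternative chosen after seeing the data, the sign of ATP1B3 turned from -0.03 to 0.0070 and that of FXYD2 from -0.58 to 0.43, neither of them called in either fit, and ATP1B2 stayed at 0.20. ATP1B2 kept its direction and was called in all 12 fits with a library left out and in 14 of the 15 other alternatives. FXYD2 and ATP4A were not tested with a minimum mean of 5 TPM.

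Same-numbered libraries did not deviate together (r from -0.107 to 0.0469), so the numbers do not pair the rats. With the replicate number as a block, 1591 genes were called and ATP1B2 was still called (log2 fold change 0.20, limma FDR = 0.0397). ATP4A was not called with the block (limma FDR = 0.0624), at the same log2 fold change of -0.93. For 0 of the 6 numbers was the same-numbered library the closest one of the other phase. The absolute depth is unknown, which limits what can be said of FXYD2 and ATP4A.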
